A study of Mus musculus with 8 samples.

Results

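The 9 genes of leukocyte adhesion were followed across the cells of the mouse brain: the integrin chains Itgam (ENSMUSG00000030786), Itgal (ENSMUSG00000030830), Itgb2 (ENSMUSG00000000290) and Itga4 (ENSMUSG00000027009), the selectin ligand Selplg (ENSMUSG00000048163), and the vascular molecules Icam1 (ENSMUSG00000037405), Vcam1 (ENSMUSG00000027962), Selp (ENSMUSG00000026580) and Sele (ENSMUSG00000026582). They were taken by symbol, 9 of the 32227 genes counted, and each was measured as unique molecular identifiers (UMIs, the tags that count RNA molecules) in single cells of 8 libraries. Each library held cells from the brain of 1 male C57Bl/6J mouse, labelled as 5 to 6 months old, and no animal carried a transgene. Lipopolysaccharide (LPS, 15000000 EU per kg) or saline was given once into the peritoneum, and the brains were taken 24 h later. Brains were dissociated with enzymes in the presence of either DMSO or inhibitors of transcription and translation (actinomycin D, triptolide and anisomycin), which gave 4 combinations with 2 libraries each. Cells positive for CD45, the pan-leukocyte antigen, were then enriched on magnetic columns. The brains were not perfused, so leukocytes inside vessels could enter the preparation, and endothelial cells, pericytes and choroid plexus cells were those carried through a leukocyte enrichment.

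Leukocytes leave the blood in steps. P-selectin (Selp) and E-selectin (Sele) on activated endothelium catch glycans carried by PSGL-1 (Selplg) on passing leukocytes, which then roll. Integrins complete the arrest: CD11a (Itgal) and CD11b (Itgam) each pair with CD18 (Itgb2) and bind ICAM-1 (Icam1), while the alpha-4 chain (Itga4) pairs with a beta-1 or beta-7 chain and binds VCAM-1 (Vcam1). In the brain the endothelium of a resting animal is known for sparse selectin display, and CD11b is also a familiar surface marker of microglia.

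The promoters of the inducible vascular genes are shown because the comparisons below turn on their RNA. RefSeq entries were found for 5 of the 9 genes (Itgam, Itga4, Icam1, Selp and Sele). The 250 bases before the annotated start are given 5′ to 3′ on the gene's strand, in build GRCm38.p6, with matches to GGNNNTTCC (a loose form of the kappaB motif, searched on both strands) in capitals.
Icam1, chr9:21015690-21015939, plus strand: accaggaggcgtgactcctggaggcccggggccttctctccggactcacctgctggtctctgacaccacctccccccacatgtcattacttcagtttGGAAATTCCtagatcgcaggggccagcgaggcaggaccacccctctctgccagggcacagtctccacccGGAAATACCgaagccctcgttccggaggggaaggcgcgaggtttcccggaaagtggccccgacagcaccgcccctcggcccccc
Selp, chr1:164115014-164115263, plus strand: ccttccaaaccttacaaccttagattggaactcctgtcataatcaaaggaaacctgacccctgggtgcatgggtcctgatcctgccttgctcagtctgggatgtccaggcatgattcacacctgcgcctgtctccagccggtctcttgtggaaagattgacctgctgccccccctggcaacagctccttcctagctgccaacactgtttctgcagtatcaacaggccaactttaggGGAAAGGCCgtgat
Sele, chr1:164047984-164048233, plus strand: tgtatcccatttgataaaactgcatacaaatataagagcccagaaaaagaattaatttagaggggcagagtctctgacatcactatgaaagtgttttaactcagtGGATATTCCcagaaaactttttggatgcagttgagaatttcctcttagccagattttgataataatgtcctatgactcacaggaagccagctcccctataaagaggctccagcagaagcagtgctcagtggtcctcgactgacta
The Icam1 window held a match starting 153 bases upstream (GGAAATTCC) and another 84 bases upstream on the opposite strand (GGAAATACC). The Selp window held GGAAAGGCC 14 bases upstream on the opposite strand, and the Sele window held GGATATTCC 145 bases upstream and a TATAAA 49 bases upstream. Of 32851 promoter windows of this length, 15.7% held GGNNNTTCC and 12.4% held TATAAA, and the motifs were chosen after the sequences had been seen. Matches in the windows of Itgam and Itga4 were not listed, so no share among the 9 genes is read from the windows shown. A match is a run of letters and says nothing of binding.

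The 8 libraries held 90352359 to 141182123 UMIs in all, and 12039 to 17364 cells per library lay within the limits of 800 to 44999 UMIs, 250 to 6499 genes and under 5% mitochondrial UMIs (119053 cells). Of these, 102421 cells passed 1 of 11 marker gates: microglia, macrophages, monocytes, neutrophils, dendritic cells, B-cells, T-cells, NKs, endothelial cells, pericytes and choroid plexus cells. The names stand for the gates, which used none of the 9 genes. The median cell held more UMIs after LPS (4149 to 4762 per library) than after saline (2207 to 3161). Gates were uneven in how firmly cells sat inside them: 63.9% of dendritic cells and 42.1% of monocytes carried only the fewest markers allowed, against 3.22% of endothelial cells. The share also differed between groups, at 17.2% of saline and 56.1% of LPS macrophages, 29.4% and 45.2% of monocytes and 47.9% and 75.4% of dendritic cells. Marker levels themselves moved with LPS. The summed microglial list in microglia was 38007 to 40256 CPM after saline (CPM, UMIs of a gene per 1000000 UMIs of the class) and 6885 to 8032 CPM after LPS, and the summed macrophage list in macrophages was 14662 to 15516 CPM and 5612 to 6846 CPM. The limit on microglial markers in the other gates followed the microglial level of each library and was lower after LPS. The part of these shifts in the results below was not tested. Free RNA, estimated from barcodes with 1 to 99 UMIs and from marker genes foreign to each class, made up 1.96% to 14.1% of a class's UMIs. The expected free-RNA level is given beside several of the genes for which it came near the measured one.

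Below, levels are CPM of the class in single libraries, always in the order DMSO 1, DMSO 2, inhibitors 1, inhibitors 2. Differences are log2 differences of LPS against saline on summed UMIs with TMM scaling, with their standard error (SE), from edgeR's quasi-likelihood test over 4 LPS and 4 saline libraries, adjusted by Benjamini-Hochberg over all genes tested in the class. A gene rose or fell where its adjusted p was under 0.05. The 9 genes gave 99 gene and class pairs, of which 63 had enough UMIs to be tested. Of the 63, 20 rose and 19 fell, against 19.6% higher and 21.4% lower (41% in either direction) among all 70592 pairs tested. The 63 passed a filter on low counts that keeps a gene high in only 1 group, so the counts describe these pairs and no more.

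Icam1, which encodes the docking molecule for LFA-1 and Mac-1, rose in endothelial cells in every LPS library. Its level was 60.2, 94.4, 67.7 and 79.3 CPM after saline and 2608, 2140, 1542 and 1544 CPM after LPS. The groups lay far apart, with means of 75.4 ± 14.9 and 1958 ± 517 CPM (SD, n = 4 each) and a log2 difference of 4.89 ± 0.24 (adjusted p = 3.66e-11). Free RNA was expected to give at most 10.6 CPM in any of these libraries. After thinning each cell to 800 UMIs, 3.90% of 897 endothelial cells held an Icam1 UMI after saline and 48.9% of 532 after LPS (15.9% and 69.4% unthinned). Among neutrophils, a class of low Icam1, the thinned shares were 0.662% and 4.03%.

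Vcam1, which encodes the ligand of the alpha-4 integrins, was already present in saline endothelium and rose further. Its level was 443, 384, 426 and 282 CPM after saline and 1405, 1153, 1076 and 710 CPM after LPS, with no overlap (log2 difference 1.70 ± 0.19, adjusted p = 1.05e-06). Both Icam1 and Vcam1 kept their call in each of 24 alternative analyses.

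The selectins were at or near 0 before LPS. Selp, the stored selectin of endothelium and platelets, gave 0, 1, 1 and 2 UMIs in saline endothelial cells and 196, 31, 68 and 45 UMIs after LPS, or 188, 48.2, 126 and 72.0 CPM. The log2 difference was 6.82 ± 0.53 (adjusted p = 6.93e-09) and was 6.39 without the LPS library DMSO 1, which held the most. Sele, the selectin made by activated endothelium, gave no UMI in any saline library and 9, 11, 5 and 13 UMIs after LPS. These stood for 8.64, 17.1, 9.23 and 20.8 CPM. Pooled over the LPS libraries, the level was 13.3 CPM, at least 18.3-fold higher than the floor of 3 UMIs over the saline group. Sele did not pass the filter on low counts. An exact permutation test of its CPM gave p = 0.0286, two-sided, the smallest value that 4 against 4 libraries allow. Unthinned, 10.7% of LPS endothelial cells held a Selp UMI and 4.89% a Sele UMI, whereas 0.378% and 0.0301% of LPS microglia did. No LPS choroid plexus cell of 192 held either.

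Endothelial cells thus carried 3 tested risers and 2 tested fallers among 7 tested genes, where 21.9% of all genes tested in the class were higher and 22.8% lower. The fallers were leukocyte genes. Selplg was 86.8, 76.5, 145 and 83.3 CPM after saline and 5.76, 18.6, 11.1 and 3.20 CPM after LPS (log2 difference -3.19 ± 0.33, adjusted p = 2.70e-07). Its expected free-RNA level was 72.4, 79.8, 132 and 79.1 CPM and then 5.84, 21.0, 5.92 and 9 CPM, so the measured level was near that of free RNA in both groups. Itga4 was at 13 to 17.9 CPM after saline and 2.88 to 9.23 CPM after LPS (log2 difference -1.57 ± 0.40, adjusted p = 0.00377), a fall from 65 to 13 UMIs that was not called in the inhibitor libraries alone (-0.83). Over the alternatives its log2 difference ran from -2.33 to -0.83 and its adjusted p reached 0.323. Itgam, at 37.3 to 90.2 and 63.7 to 77.5 CPM, was not called in the main test and was higher with the replicate number as a block (log2 difference 0.47, adjusted p = 0.0487). The summed endothelial marker list was 23020 to 25386 CPM after saline and 16003 to 18297 CPM after LPS, and the microglial list in these cells was 3221 to 3635 and 1230 to 2056 CPM. Their part in the differences was not tested.

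**Figure D1:**
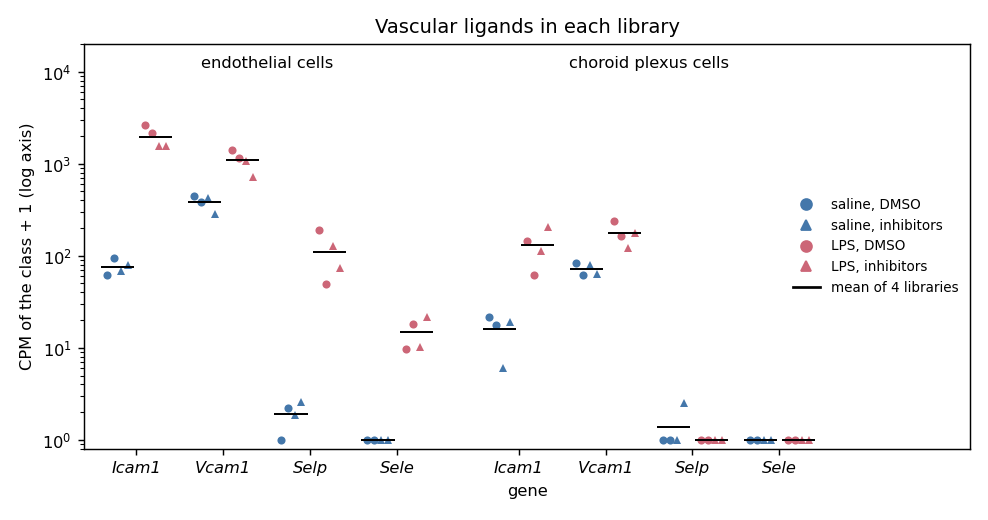
Levels of Icam1, Vcam1, Selp and Sele in endothelial and choroid plexus cells, one point per library, as CPM of the class plus 1 on a log axis. Circles are DMSO and triangles inhibitor libraries, blue is saline and red LPS, and black bars are means of 4 libraries. Endothelial Icam1 ran from 60.2 to 94.4 CPM after saline and from 1542 to 2608 CPM after LPS, and Sele was at 0 in all saline libraries.

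Within the endothelial gate, cells with at least 2 markers of 1 vessel segment were placed as arterial, capillary or venous. The cells were few and markers moved with LPS, so segment values are a description with no test. After saline the gate held 286 arterial, 338 capillary, 99 venous and 174 unplaced cells, and after LPS 104, 49, 171 and 208. The venous list summed to 769 to 1069 CPM in saline arterial cells and 1941 to 2667 CPM in LPS arterial cells, and the capillary list in capillary cells was 5326 to 6155 and 1067 to 1858 CPM. A cell's segment is therefore less sure after LPS.

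The vascular genes differed in where they were found. Icam1 was highest in arterial cells after LPS, at 3843, 3635, 2553 and 2429 CPM, from 65.6, 95.4, 31.8 and 97.5 CPM after saline. Venous cells held 1775, 910, 714 and 1054 CPM of Icam1 after LPS, below the arterial cells of each library at full depth. Capillary cells spread widely, at 1793, 2625, 325 and 265 CPM, on 10 to 14 cells per library. Thinned to 800 UMIs, mean arterial Icam1 after LPS was 2033 CPM in place of 3115 CPM. In the LPS library inhibitors 2 the order then turned, with 724 CPM in 19 arterial cells and 921 CPM in 38 venous cells.

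Vcam1 marked arterial and venous cells before LPS. It was 767, 511, 355 and 521 CPM in saline arterial cells and 746, 789, 1496 and 452 CPM in saline venous cells, but 12.2, 67.4, 48.3 and 5.44 CPM in capillary cells. After LPS arterial cells held 2248, 2254, 1759 and 1356 CPM, all above their saline values at full depth, while venous cells at 841, 679, 480 and 259 CPM overlapped theirs. Thinned to 800 UMIs the arterial groups overlapped too, with 921 CPM in the LPS library inhibitors 2 and 1038 CPM in the saline library DMSO 1.

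The selectins lay mostly in venous cells. Of 340 Selp UMIs in LPS endothelium, 227 were in venous cells, 15 in arterial, 9 in capillary and 89 in unplaced cells. Venous Selp was 0, 7.51, 7.37 and 0 CPM after saline and 381, 84.3, 240 and 136 CPM after LPS, and LPS arterial cells held 0, 0, 42.8 and 41.3 CPM. The 9 capillary UMIs lay in the LPS library DMSO 2, whose 13 capillary cells held 204 CPM against 84.3 CPM in its venous cells. Of 38 Sele UMIs, 24 were in venous cells, at 14.2, 25.3, 28.6 and 35.1 CPM, 1 each in arterial and capillary cells and 12 in unplaced cells.

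**Figure D2:**
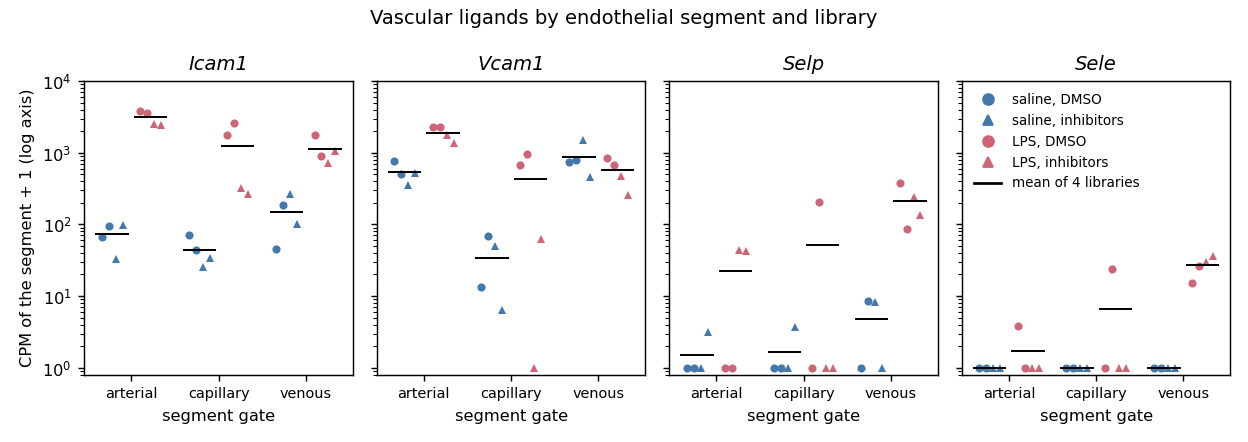
Levels of Icam1, Vcam1, Selp and Sele in endothelial cells placed as arterial, capillary or venous, one point per library, with saline in blue and LPS in red and circles for DMSO and triangles for inhibitor libraries. Arterial Icam1 lay between 2429 and 3843 CPM after LPS and venous Selp between 84.3 and 381 CPM.

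Choroid plexus cells, the epithelium that makes cerebrospinal fluid, raised the same pair of immunoglobulin ligands from lower levels. Icam1 was 20.4, 16.8, 4.99 and 17.9 CPM after saline and 143, 61.3, 112 and 204 CPM after LPS (log2 difference 2.84 ± 0.37, adjusted p = 4.66e-06). Vcam1 was 81.7, 61.5, 78.2 and 62.8 CPM and then 237, 164, 120 and 177 CPM (log2 difference 0.97 ± 0.20, adjusted p = 0.000892). Neither gene's groups overlapped. The Vcam1 call was lost in the inhibitor libraries alone, and over all alternatives its adjusted p reached 0.124. Choroid plexus cells of LPS libraries were deeper, with a median of 2457 to 10738 UMIs against 1470 to 1600 after saline, and neither gene could be tested with thinned cells, so the part of depth was not tested. In this gate the choroid plexus list went from 5817 to 6676 CPM to 4360 to 5007 CPM, the monocyte list from 296 to 477 CPM to 740 to 1159 CPM and the microglial list from 961 to 3518 CPM to 464 to 861 CPM, and their part was not tested either. Selplg in these cells was 40.9, 125, 79.9 and 218 CPM and then 5.70, 35, 8.42 and 19.4 CPM (log2 difference -3.49 ± 0.46, adjusted p = 5.38e-06), near the expected free RNA of 38.3, 94.7, 89.9 and 174 CPM after saline. In all 2 of 5 tested genes rose and 1 fell, where 14.4% and 15% of all genes tested in the class did.

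Pericytes, the mural cells of small vessels, were too few for any of the 9 genes to be tested. They gave 5, 0, 1 and 0 Icam1 UMIs after saline and 8, 2, 5 and 1 after LPS, and 4 and 13 Vcam1 UMIs in the 135 saline and 126 LPS cells. Itga4 was found in them in every library, with 12, 1, 11 and 4 UMIs and then 6, 1, 2 and 5. Selp, Sele and Itgal gave no UMI.

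Leukocytes and microglia also carried the ligands. In microglia Vcam1 rose from 12.9, 10.1, 14.1 and 11.2 CPM to 77.1, 55.6, 89.2 and 54.4 CPM (log2 difference 3.26 ± 0.14, adjusted p = 3.30e-09), with no overlap. Icam1 in microglia was 103, 113, 104 and 106 CPM and then 133, 91.5, 146 and 125 CPM. The groups overlapped on that scale, and the TMM-scaled difference of 0.97 ± 0.14 (adjusted p = 7.88e-05) became 0.22 with library totals alone (adjusted p = 0.134, the highest over its alternatives, whose lowest was 4.42e-09). In microglia the choice of scaling moved the median log2 difference of all genes from -0.19 (TMM) to -0.95 (library totals). Both Icam1 values lay above that median.

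Icam1 rose in 4 leukocyte classes besides. In macrophages it was 28.9, 26.5, 36.7 and 39.997 CPM and then 106, 50.1, 82.6 and 90.1 CPM (log2 difference 1.63 ± 0.21, adjusted p = 1.52e-05). In neutrophils it was 17.6, 4.39, 23.8 and 5.34 CPM and then 44.6, 24.8, 61.8 and 75.9 CPM (log2 difference 2.40 ± 0.48, adjusted p = 0.00414), and expected free RNA was at most 19.8 CPM. In T-cells it was 47.8, 28.7, 45.8 and 41.2 CPM and then 74.6, 90.8, 67.9 and 73.7 CPM (log2 difference 1.01 ± 0.28, adjusted p = 0.0157). In these 3 classes no LPS library fell within the saline range. The T-cell call did not hold without the saline library DMSO 2 (log2 difference 0.84, adjusted p = 0.0561), and over the alternatives its adjusted p ran from 0.0133 to 0.258. Monocyte Icam1 rose by 0.88 ± 0.23 (adjusted p = 0.012), with overlapping levels of 31.2 to 73.5 and 62.0 to 107 CPM, and the difference was 0.29 with cells thinned to 800 UMIs (adjusted p = 0.489, over alternatives from 0.000226).

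Macrophages held the highest mean Vcam1 after saline, at 572, 250, 615 and 278 CPM, and overlapped with that after LPS, at 336, 231, 231 and 294 CPM. The log2 difference of -0.32 ± 0.25 was not called, but it was -0.68 with library totals (adjusted p = 0.0428, the lowest over its alternatives, whose highest was 0.757). Both saline libraries of replicate 1 were higher than those of replicate 2. In neutrophils Vcam1 was 77.9, 120, 7.95 and 10.7 CPM and then 7.97, 4.97, 19.5 and 32.9 CPM, a fall of 1.91 ± 0.63 on the log2 scale (adjusted p = 0.0484). Both saline DMSO libraries lay above all LPS libraries and both saline inhibitor libraries within their range. Without 1 of 5 libraries in turn the call was lost, with log2 differences of -1.11 to -1.85, and with the replicate number as a block it was -1.81 (adjusted p = 0.0512). Over the alternatives that adjusted p ran from 9.61e-05 to 0.279. Without the saline library DMSO 2 the difference was -1.11, the smallest of these. Median depth of saline neutrophils was 2235 and 1797 UMIs in the DMSO and 1672 and 1608.5 in the inhibitor libraries. After LPS it was 1352 to 1622 UMIs. The summed neutrophil list in these cells ran from 115134 to 293082 CPM over the saline libraries. The part of depth and of this spread in the neutrophil results was not tested.

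Selplg, the leukocyte glycoprotein to which selectins attach, was far higher in saline microglia than in any other class, at 2801, 3523, 3247 and 3530 CPM. After LPS it was 235, 367, 197 and 215 CPM (log2 difference -2.95 ± 0.23, adjusted p = 2.93e-07, and -3.69 with library totals). Selplg also fell in monocytes, from 222, 233, 307 and 260 CPM to 77.0, 85.5, 40.2 and 65.4 CPM (log2 difference -1.83 ± 0.24, adjusted p = 7.52e-05). Expected free RNA there was 67.6 to 129 CPM after saline and 4.38 to 16.06 CPM after LPS, so the free level fell as well. In macrophages it fell from 160, 189, 190 and 169 CPM to 32.1, 70.2, 37.2 and 25.7 CPM (log2 difference -1.82 ± 0.23, adjusted p = 1.45e-05, and -1.14 with expected free RNA subtracted). Beside these falls the microglial list went from 6111 to 6646 CPM to 633 to 849 CPM in macrophages and from 1587 to 2536 CPM to 387 to 540 CPM in monocytes, and the monocyte list in monocytes from 9272 to 10839 CPM to 5807 to 7163 CPM. Their part in the macrophage and monocyte results was not tested.

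Neutrophils held Selplg at 131, 188, 540 and 342 CPM after saline and 303, 361, 327 and 316 CPM after LPS, with no call. NKs had 475, 923, 813 and 831 CPM and then 383, 723, 404 and 308 CPM. That fall of 0.79 ± 0.24 on the log2 scale (adjusted p = 0.026) was lost without 6 of the 8 libraries in turn, with log2 differences from -0.63 to -0.76. Those libraries were both LPS inhibitor libraries, both saline inhibitor libraries, the LPS library DMSO 1 and the saline library DMSO 2. The NK call was also lost with DESeq2 (-0.70, adjusted p = 0.0787) and with free RNA subtracted (-0.69, adjusted p = 0.0616). In the DMSO libraries alone the difference was -0.39 (adjusted p = 0.664). In T-cells the log2 difference of -0.66 was not called (adjusted p = 0.0683), and with the replicate number as a block it was -0.65 (adjusted p = 0.0459, over alternatives from 0.00469 to 0.773). In B-cells Selplg was 136, 130, 173 and 168 CPM after saline and 159, 57.3, 0 and 0 CPM after LPS, on 107 LPS cells in all and with an expected free-RNA level of 78 to 165 CPM after saline. The log2 difference of -1.14 was not called, but it was in the inhibitor libraries alone (-8.91, where LPS was at 0 UMIs), without the LPS library DMSO 1 (-3.10), without cells over 2 times the median UMIs (-1.81) and without the filter on low counts (-1.46), with adjusted p from 4.29e-07 to 0.997 over alternatives.

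Itgam, the CD11b chain, changed in opposite directions in different leukocytes. In macrophages it was 326, 296, 319 and 255 CPM after saline and 2659, 1654, 2398 and 2009 CPM after LPS (log2 difference 3.17 ± 0.17, adjusted p = 1.39e-09, and 3.19 with 1 more marker asked of each cell). In monocytes it was 437, 367, 893 and 555 CPM and then 2844, 1821, 2233 and 2437 CPM (log2 difference 2.14 ± 0.26, adjusted p = 3.42e-05). Neither class overlapped between groups. In LPS macrophages the neutrophil list summed to 512 to 697 CPM, from 207 to 367 CPM, and the monocyte list to 817 to 967 CPM, from 1396 to 1838 CPM, and the shifts given with Selplg stand beside both classes. Neutrophils held the highest Itgam after saline, at 1902, 1240, 3226 and 2425 CPM, and overlapped with that after LPS, at 3660, 1600, 2848 and 2186 CPM, with no call. Dendritic cells went the other way, from 382, 172, 383 and 238 CPM to 75.8, 93.2, 149 and 129 CPM (log2 difference -1.44 ± 0.36, adjusted p = 0.00672). Beside it, the dendritic marker list in that class went from 3681 to 4567 CPM to 7808 to 12804 CPM and the monocyte list from 623 to 1424 CPM to 53 to 738 CPM, and their part in the dendritic cell results was not tested. The Itgam call was lost in the inhibitor libraries alone (-1.15, adjusted p = 0.0663, over alternatives from 0.00277 to 0.0663). NKs also held less Itgam, from 205, 213, 251 and 202 CPM to 83.2, 54.7, 131 and 99.7 CPM (log2 difference -1.22 ± 0.24, adjusted p = 0.00154). Microglial Itgam was 1102, 957, 1025 and 899 CPM and then 908, 795, 1002 and 639 CPM, a TMM-scaled rise of 0.49 ± 0.13 (adjusted p = 0.00459) and a difference of -0.25 with library totals.

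Itgb2, the beta chain that both CD11a and CD11b need, rose in the same myeloid classes as Itgam. In macrophages it was 234, 244, 232 and 217 CPM and then 410, 218, 421 and 319 CPM (log2 difference 0.87 ± 0.17, adjusted p = 0.00077), with 1 LPS library inside the saline range. In monocytes it was 469, 407, 1022 and 659 CPM and then 1253, 891, 1161 and 1033 CPM (log2 difference 0.84 ± 0.25, adjusted p = 0.0206), again with overlap. That call was lost without the saline library DMSO 1 (0.74, adjusted p = 0.0557) or the LPS library DMSO 1 (0.77, adjusted p = 0.0623), and its adjusted p over alternatives ran from 0.000236 to 0.351. Itgb2 fell in 3 lymphoid or dendritic classes. In NKs it went from 786, 794, 854 and 777 CPM to 310, 352, 374 and 211 CPM (log2 difference -1.40 ± 0.18, adjusted p = 2.80e-05), and in T-cells from 300, 344, 408 and 301 CPM to 149, 112, 154 and 134 CPM (log2 difference -1.18 ± 0.21, adjusted p = 0.000365). In dendritic cells it went from 354, 295, 533 and 476 CPM to 44.2, 26.6, 187 and 16.2 CPM (log2 difference -2.51 ± 0.52, adjusted p = 0.00184, and -3.62 without the LPS library inhibitors 1), beside the same marker shift as for Itgam. These 3 classes showed no overlap. Marker lists moved in the lymphoid gates too. In NKs the NK list went from 18412 to 32364 CPM to 32447 to 42872 CPM, the monocyte list from 956 to 1908 CPM to 583 to 649 CPM and the microglial list from 1356 to 2548 CPM to 243 to 754 CPM. In T-cells the T-cell list went from 5251 to 7614 CPM to 3547 to 5274 CPM and the microglial list from 2088 to 4128 CPM to 393 to 793 CPM. Their part in the NK and T-cell results was not tested. In the DMSO libraries alone, 2 against 2, the calls of T-cell Itgb2 (-1.17) and Itgal (-1.33) and NK Itga4 (-1.62) were lost. So were those of macrophage Itgb2 (0.76) and Itgal (1.01). Calls of microglial Itgam (0.51 in DMSO and 0.53 in inhibitor libraries) and Itgb2 (0.45 and 0.39) were lost in either dissociation alone. Neutrophil Itgb2, at 832 to 1772 and 1071 to 1687 CPM, was not called. Microglial Itgb2 reversed with the scaling, from a rise of 0.39 ± 0.11 (adjusted p = 0.00642) to -0.36 with library totals (adjusted p = 0.00674, over alternatives from 5.42e-05 to 0.17).

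Itgal, the CD11a chain, fell in T-cells from 186, 163, 259 and 184 CPM to 69.6, 55.9, 92.6 and 39.0 CPM (log2 difference -1.54 ± 0.26, adjusted p = 0.000278). In monocytes it was 253, 232, 472 and 256 CPM and then 194, 133, 185 and 160 CPM (log2 difference -0.77 ± 0.22, adjusted p = 0.0157). Neither class overlapped between groups. The monocyte call did not hold without the saline library inhibitors 1, the highest of its group (-0.46, adjusted p = 0.0516, over alternatives from 4.63e-05 to 0.333). Itgal rose in macrophages, from 36.0, 16.1, 14.3 and 25.9 CPM to 59.0, 25.1, 64.0 and 42.9 CPM (log2 difference 1.33 ± 0.32, adjusted p = 0.00281), with overlap and with no call in the DMSO libraries alone (1.01, adjusted p = 0.117, over alternatives from 2.47e-06 to 0.117). It also rose in microglia from a low level, 4.71 to 7.64 CPM, to 11.1 to 18.2 CPM (log2 difference 1.93 ± 0.17, adjusted p = 1.06e-06, and 1.19 with library totals). NK Itgal, with a log2 difference of -0.53, was not called.

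Itga4, the alpha-4 chain that binds VCAM-1, fell in macrophages, NKs and T-cells and rose in dendritic cells. In macrophages it was 131, 108, 121 and 87.9 CPM and then 21.9, 10.03, 24.8 and 17.2 CPM (log2 difference -2.25 ± 0.22, adjusted p = 7.43e-07). In NKs it was 180, 167, 271 and 157 CPM and then 94.3, 18.2, 72.9 and 48.3 CPM (log2 difference -1.72 ± 0.32, adjusted p = 0.00091). T-cells went from 207, 141, 223 and 106 CPM to 24.9, 55.9, 92.6 and 34.7 CPM (log2 difference -1.63 ± 0.32, adjusted p = 0.00113). None of these classes overlapped. Dendritic cells went from 84.9, 147, 186 and 192 CPM to 619, 320, 299 and 404 CPM, again without overlap (log2 difference 1.38 ± 0.33, adjusted p = 0.00437). The marker shift given with dendritic Itgam stands beside this difference as well, and the call was lost in the inhibitor libraries alone (0.86, adjusted p = 0.129, over alternatives from 0.000604 to 0.129). Monocyte Itga4, at 228 to 587 and 205 to 333 CPM, was not called (log2 difference -0.35), but it was called with cells thinned to 800 UMIs (-0.84, adjusted p = 0.0033) and without cells over 2 times the median UMIs (-0.62, adjusted p = 0.0195), over alternatives from 0.0033 to 0.946. Microglial Itga4 fell from 7.29 to 10.8 CPM to 2.22 to 2.81 CPM (log2 difference -1.14 ± 0.16, adjusted p = 4.20e-05).

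**Figure D3:**
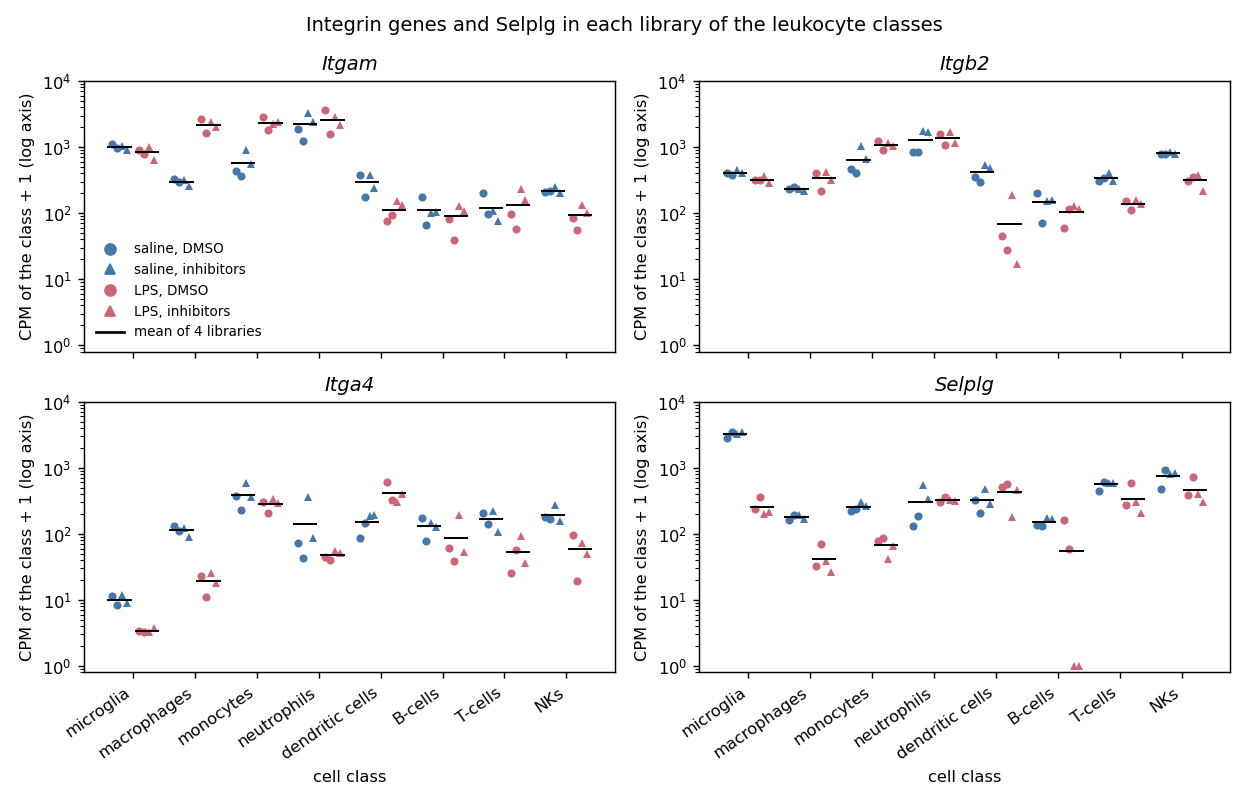
Levels of Itgam, Itgb2, Itga4 and Selplg in 8 classes of leukocytes, one point per library, with saline in blue and LPS in red and circles for DMSO and triangles for inhibitor libraries. Macrophage Itgam lay at 255 to 326 CPM after saline and 1654 to 2659 CPM after LPS, and microglial Selplg at 2801 to 3530 and 197 to 367 CPM.

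By class, microglia had 5 risers and 2 fallers of 8 tested genes (29.9% and 35.2% of all genes tested in the class were higher and lower), macrophages 4 and 2 of 7 (23% and 24.2%) and monocytes 3 and 2 of 7 (14.4% and 14.7%). Neutrophils had 1 and 1 of 7 (9.91% and 9.06%), dendritic cells 1 and 2 of 6 (20% and 19.1%), T-cells 1 and 3 of 6 (8.74% and 8.6%) and NKs 0 and 4 of 6 (10.6% and 11.4%). No B-cell pair of 4 was called (4.4% and 3.63%). Under at least 1 alternative a call was also gained by Vcam1 in monocytes and macrophages, Itga4 in monocytes and neutrophils, Itgal in dendritic cells and NKs, Selplg in neutrophils, B-cells and T-cells, Itgam in T-cells, endothelial cells and choroid plexus cells, and Itgb2 in choroid plexus cells. DESeq2 called 39 of 90 pairs it fitted and edgeR 39 of 63, but these were not all the same pairs. DESeq2 did not call Vcam1 in neutrophils (adjusted p = 0.193) or Selplg in NKs (adjusted p = 0.0787). Leaving out 1 library ended 5 of the 39 edgeR calls, each named above: Itgal and Itgb2 in monocytes, Vcam1 in neutrophils, Icam1 in T-cells and Selplg in NKs.

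**Figure D4:**
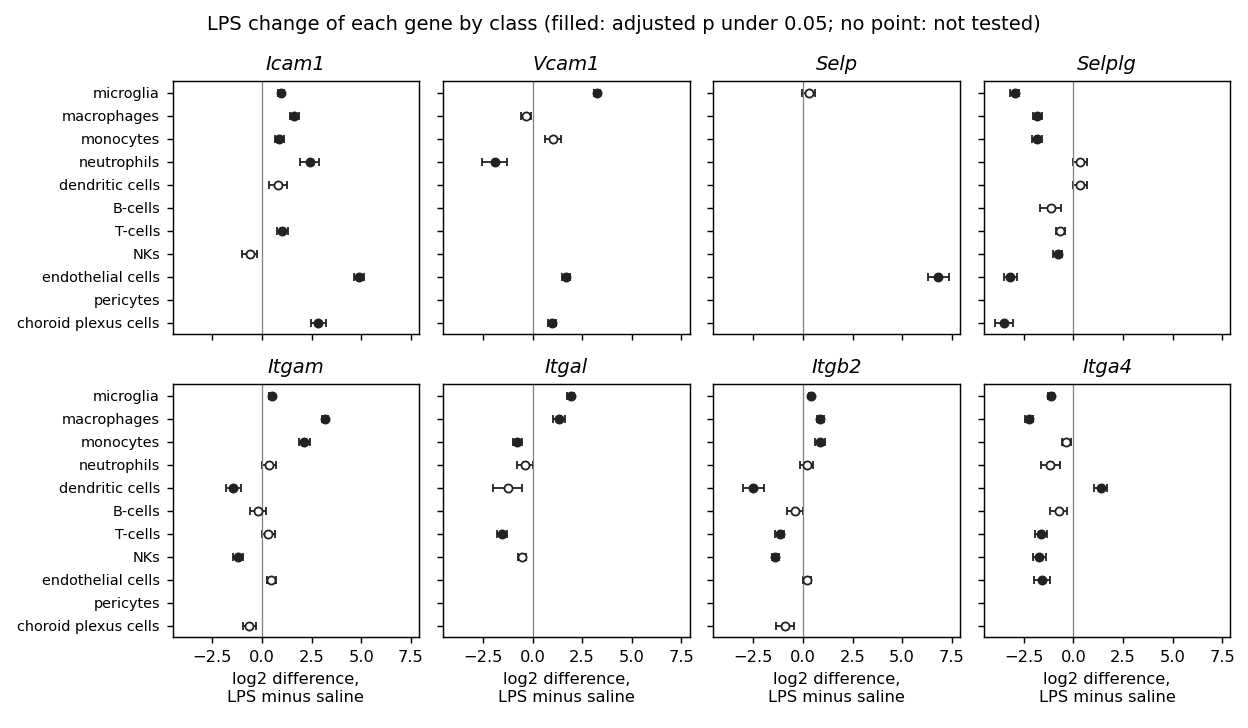
Log2 difference of LPS against saline by class for the 8 genes that could be tested, as points with bars of 1 SE from edgeR with TMM scaling. Filled points have an adjusted p under 0.05, and a class with no point was not tested. Icam1 was at 4.89 in endothelial cells and 2.84 in choroid plexus cells, and Itgam ran from -1.44 in dendritic cells to 3.17 in macrophages.

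Whether an LPS difference was larger in one class than in another was tested for 7 pairs of classes with the mouse as a block, and 23 of 52 gene and pair tests were called, against 17% of all genes. Because the fit borrowed its spread across all genes for some pairs, the ratio of the 2 classes in each mouse is given on the log2 scale with an exact permutation test, two-sided, whose smallest p for 4 against 4 mice is 0.0286. The ratios add 0.5 UMI to each count and divide by library sizes scaled with TMM over both classes of the pair, so they differ from ratios of the CPM given above. Pericytes held 6 and 16 Icam1 UMIs in all, with saline libraries at 0, so their ratio to endothelial cells was set by that addition and is not read here. Icam1 in endothelial cells against choroid plexus cells was at 0.61 to 2.42 after saline and 2.45 to 4.52 after LPS (exact permutation p = 0.0286). With class totals alone, the scale of the CPM, the same ratio overlapped, at 1.35 to 3.55 and 2.91 to 5.09 (exact permutation p = 0.0571). Its fitted difference of 2.03 was not called in the inhibitor libraries alone (1.30, adjusted p = 0.221) or with free RNA subtracted (1.52, adjusted p = 0.0958). Against microglia, Icam1 turned from -1.04 to -0.54 into 2.86 to 3.97 (exact permutation p = 0.0286). For Vcam1 the same ratio narrowed, from 4.30 to 4.96 to 3.04 to 3.80 (exact permutation p = 0.0286). Endothelial against choroid plexus Vcam1 overlapped, at 1.00 to 1.64 and 1.54 to 2.62 (exact permutation p = 0.0571), and at 2.15 to 2.62 and 2.00 to 3.15 with class totals alone. The other ratios given here and for the leukocyte pairs below, none of which overlapped, did not overlap with class totals alone either.

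Microglia and macrophages exchanged places for Itgam. The log2 ratio of microglia to macrophages, on the same TMM scale, was 1.77 to 1.89 after saline and -1.25 to -0.74 after LPS (exact permutation p = 0.0286), and 1.68 to 1.82 and -1.65 to -1.06 with class totals alone. For Selplg it narrowed from 4.17 to 4.45 to 2.64 to 3.41, and for Vcam1 from -5.44 to -4.51 to -2.03 to -1.10 (exact permutation p = 0.0286 for each). Monocytes gained Itgam on neutrophils, from -2.50 to -1.67 to -0.80 to -0.28, and lost Selplg to them, from -0.72 to 0.37 to -3.47 to -2.39 (exact permutation p = 0.0286 for each). For Itgal the ratio of T-cells to NKs went from -0.49 to -0.20 to -1.61 to -1.03. Its fitted difference was -1.07 (adjusted p = 0.0488). The call was lost with free RNA subtracted (-1.02, adjusted p = 0.0764) and with thinned cells (-1.23, adjusted p = 0.347). It was also lost in the DMSO (-1.11, adjusted p = 0.327) or inhibitor (-1.00009, adjusted p = 0.389) libraries alone. No gene was called between T-cells and B-cells.

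Across classes, the order of each gene's levels is a description. After saline neutrophils led in Itgam (mean 2198 CPM), microglia followed (996 CPM) and monocytes came next (563 CPM), and none of these neighbours overlapped. After LPS neutrophils (2574 CPM), monocytes (2334 CPM) and macrophages (2180 CPM) overlapped, with microglia apart below them (836 CPM). Neutrophils also led in Itgb2, at 1290 and 1368 CPM, and overlapped with NKs after saline (803 CPM) and with monocytes after LPS (1084 CPM). Monocytes led in Itgal after saline (304 CPM) and NKs after LPS (191 CPM), each overlapping with the next. Itga4 was led by monocytes after saline (385 CPM) and by dendritic cells after LPS (410 CPM), again overlapping. Selplg passed from microglia, alone at 3275 CPM, to NKs (454 CPM), dendritic cells (428 CPM), T-cells (340 CPM) and neutrophils (327 CPM), which overlapped. LPS microglia came next (253 CPM) and overlapped with each of these classes. Icam1 was led by microglia after saline (106 CPM), overlapping with dendritic cells (82.7 CPM), and by endothelial cells alone after LPS. Vcam1 was led by macrophages (429 CPM) and endothelial cells (384 CPM) after saline, which overlapped, and by endothelial cells alone after LPS (1086 CPM). Endothelial cells led in Selp after LPS at a mean of 108 CPM, overlapping with B-cells, where 1 library of few cells held 49.5 CPM, and stood alone in Sele (13.9 CPM). With expected free RNA subtracted the leading class was kept in 18 of 18 orders, and in 16 with cells thinned to 800 UMIs, the exceptions being Selp and Sele after saline.

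**Figure D5:**
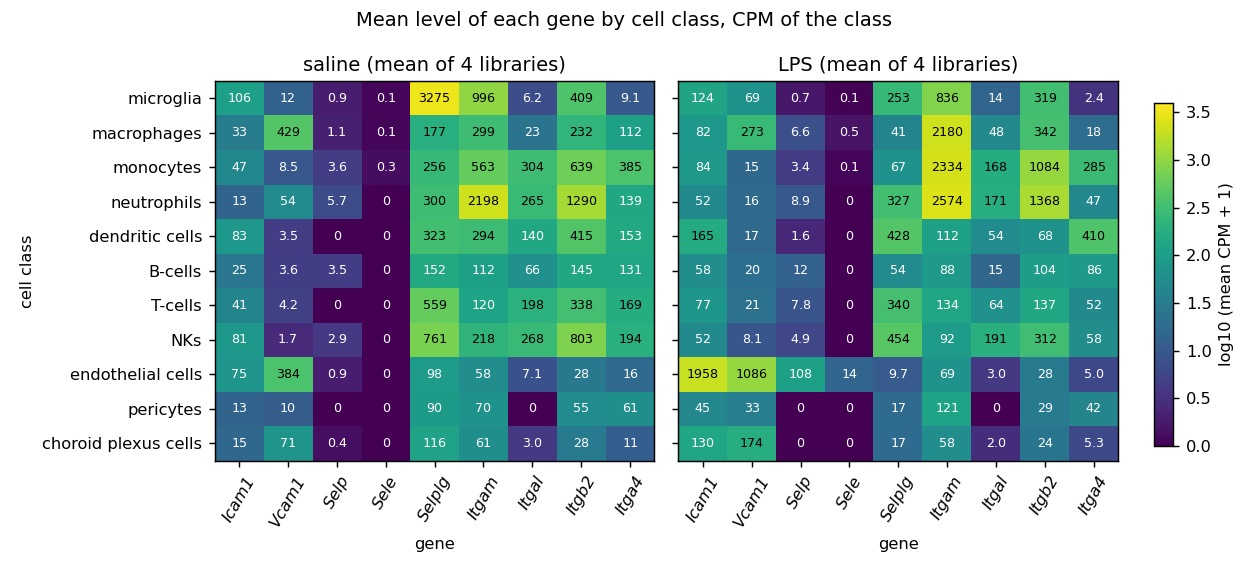
Heat map of the mean CPM of each of the 9 genes in each of 11 classes, for saline and LPS, over 4 libraries each, on a log colour scale. Selplg in microglia went from 3275 to 253 CPM and Icam1 in endothelial cells from 75.4 to 1958 CPM.

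No gene was called between the dissociations. DMSO against inhibitor libraries, with LPS as a covariate, gave no call in 65 tested pairs by edgeR (5 at an unadjusted p under 0.05), where edgeR called 0.236% of all pairs. It gave none in 90 by DESeq2 (5 at an unadjusted p under 0.05). The LPS difference itself differed between the dissociations by edgeR in 2 of 68 pairs (13 at an unadjusted p under 0.05), where edgeR called 0.0637% of all pairs, and DESeq2 called 1 of 90. They were Vcam1 in neutrophils, whose LPS difference was lower by 5.46 ± 0.85 on the log2 scale in DMSO libraries (adjusted p = 0.0106), and Selplg in B-cells, where both LPS inhibitor libraries were at 0 UMIs. The Selplg call was lost under 11 alternatives, among them DESeq2, library totals, free RNA subtracted and the removal of the LPS library DMSO 1, inhibitors 1 or inhibitors 2 (8.10, 9.14 and 8.97). The Vcam1 call was lost without the saline library DMSO 2 (-4.93), the saline library inhibitors 1 (-5.13) or the LPS library inhibitors 2 (-4.98). Neutrophils of the saline inhibitor libraries held only 125845 and 187207 UMIs of all genes, with Vcam1 as low as 7.95 CPM. With free RNA subtracted the Vcam1 difference was -11.4. It could not be tested with thinned cells or without cells over 2 times the median UMIs. With the replicate number as a block, 4 pairs were called: neutrophil Itgal (1.62, adjusted p = 0.0108) and Selplg (1.42, adjusted p = 0.0266) were added. Both shares of all pairs given here are at an adjusted p and without that block. At an unadjusted p under 0.05, DMSO against inhibitors ran from 203 of 9416 genes in endothelial cells to 414 of 6955 in neutrophils. The difference between dissociations ran from 389 of 22346 genes in microglia to 1250 of 7830 in neutrophils.

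The rest of the adhesion machinery was followed in a list of 75 further genes, all but 1 of which were found: other integrin chains, selectins and their ligands, glycan enzymes, junction proteins, activators and sheddases. In endothelial cells 16 of 45 tested genes rose and 14 fell (21.9% and 22.8% of all genes tested), with a list median log2 difference of 0.24 against -0.03 over all genes. The integrin chains Itgb3 (2.84 ± 0.34) and Itga5 (2.53 ± 0.18), subunits of the vitronectin and fibronectin receptors, rose most, with Mcam (2.28 ± 0.25), a junctional adhesion protein. The glycan enzyme Gcnt1 (-2.12 ± 0.32), the integrin chain Itgb5 (-1.85 ± 0.38, at its expected free-RNA level) and Cd99l2 (-1.81 ± 0.28) fell most. In choroid plexus cells 7 rose and 3 fell of 24 (14.4% and 15% of all genes, list median 0.13 against 0.02), led by Madcam1 (3.34 ± 0.53), a ligand of alpha-4 beta-7 integrin, Pvr (1.57 ± 0.41) and Itga3 (1.55 ± 0.33). Sirpa (-2.19 ± 0.41, with free RNA at 49.4 of 50.7 CPM after saline and 6.52 of 16.3 CPM after LPS), St3gal6 (-1.01 ± 0.32) and Itgb5 (-0.68 ± 0.25) fell there. The last 2 were not called with library totals or with free RNA subtracted, where St3gal6 was at -0.60 and Itgb5 turned to 0.28. In pericytes Rap1b (1.31 ± 0.42), a GTPase that activates integrins, rose, and Itga7 (-1.67 ± 0.32) and Rasgrp2 (-1.31 ± 0.32) fell, 1 and 2 of 12 tested where 11.7% and 11.9% of all genes rose and fell.

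The sheddase gene Adam8, which encodes a membrane metalloprotease, rose by 4.57 ± 0.22 in microglia, 4.5 ± 0.29 in monocytes and 3.34 ± 0.26 in macrophages. In microglia 16 rose and 34 fell of 72 (29.9% and 35.2% of all genes, list median -0.49 against -0.19), with Cd44 (3.95 ± 0.16), a hyaluronan receptor, and Madcam1 (3.91 ± 0.30, under 2 CPM) rising and Jam2 (-3.44 ± 0.11), Tln2 (-2.56 ± 0.11) and Fut7 (-2.55 ± 0.34) falling. In macrophages 12 rose and 9 fell of 34 (23% and 24.2%, 0.10 against -0.04), with Itga5 (2.79 ± 0.25) rising and Tln2 (-4.89 ± 0.28), a talin that links integrins to actin, St3gal6 (-2.77 ± 0.19) and Itgb5 (-2.19 ± 0.18) falling. In monocytes 9 rose and 18 fell of 51 (14.4% and 14.7%, -0.37 against -0.03), with Itga9 (1.99 ± 0.34) and Pecam1 (1.69 ± 0.20) rising and Fut7 (-3.61 ± 0.56), the fucosyltransferase of selectin ligands, Itga1 (-2.24 ± 0.27) and Cd34 (-2.16 ± 0.37) falling. In neutrophils 5 rose and 3 fell of 34 (9.91% and 9.06%, 0.14 against -0.05), with Itgb7 (1.66 ± 0.42), Fyb (1.53 ± 0.34) and Cyth1 (1.29 ± 0.40, not called with library totals) rising and Itgb5 (-1.94 ± 0.41, at its free-RNA level), Itga6 (-1.53 ± 0.36) and Alcam (-1.22 ± 0.35) falling. Expected free RNA of Itga6 was 16.9 of 34.4 CPM after saline and 3.62 of 10.6 CPM after LPS. Neither Itgb5 nor Itga6 could be tested there with free RNA subtracted.

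Itgb7, the partner chain of alpha-4, fell in dendritic cells, NKs and B-cells. Dendritic cells had 1 riser and 5 fallers of 15 (20% and 19.1% of all genes, list median -0.52 against 0.01). Cytip (1.93 ± 0.26), which detaches cytohesin from integrins, rose, and Itgb7 (-6.04 ± 0.55, 0 UMIs in 3 LPS libraries), Apbb1ip (-1.33 ± 0.27) and Skap2 (-1.16 ± 0.31) fell. NKs had 1 and 6 of 17 (10.6% and 11.4%, -0.52 against -0.0027), with Fyb (0.76 ± 0.23) rising and Itgb7 (-1.84 ± 0.42), Itgb1 (-1.59 ± 0.32) and St3gal6 (-1.14 ± 0.28) falling. T-cells had 0 and 11 of 30 (8.74% and 8.6%, -0.59 against 0.01), led by Itgb5 (-3.16 ± 0.43, at its free-RNA level after LPS), St3gal6 (-2.01 ± 0.33) and Itga6 (-1.68 ± 0.42). B-cells had 1 and 4 of 25 (4.4% and 3.63%, -0.45 against -0.04), with Cd47 (0.85 ± 0.26) rising and Itgb7 (0 UMIs in each LPS library), Itgb5 (-1.88 ± 0.57, with free RNA at 48.8 of 82.7 CPM after saline) and Rasgrp2 (-1.82 ± 0.45) falling. The Cd47 call was lost with library totals (0.69, adjusted p = 0.154) and with free RNA subtracted (0.75, adjusted p = 0.123).

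Genes whose levels followed the 9 most closely were sought over 22 means of log2 (CPM + 1), 11 classes after saline and LPS, as a description. The points share libraries and depth. Itgal and Itgb2 followed each other at Pearson r = 0.86 and Itgam and Itgb2 at 0.81, as did Selp and Sele (0.81). Sele was at 13.9 CPM in LPS endothelial cells and at most 0.54 CPM in every other mean. All correlations with Sele, here and below, thus rest mainly on that endothelial mean. Itga4 and Vcam1 were opposed (-0.62). Among all genes with a mean of at least 10 CPM, those close to Itgam included Siglece (0.90) and Ncf1 (0.89), and the closest to Itgb2 were Ncf4 (0.93), Evi2 (0.92) and Arhgap9 (0.92). The closest to Itgal were Kcnab2 (0.96), Ptpn7 (0.94) and Nabp1 (0.93), to Itga4 Sdhaf2 (0.80), Cenpa (0.79) and Arhgap15 (0.78), and to Selplg Arl4c, Bin2 and Mthfs (0.85 each). Among the vascular genes, the closest to Icam1 were Slc7a6 (0.82), Gars (0.80) and Itga5 (0.79), and to Vcam1 Cpne8 (0.84), Osbpl1a (0.82) and Slc31a1 (0.81). Ackr1, the chemokine-binding receptor of venules and one of the venous markers, was closest to both Selp (0.80) and Sele (0.93), followed by Mctp2 (0.80) and Tnip1 (0.77) for Selp and by Ercc1 (0.81) and Adamts9 (0.80) for Sele.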

How the data were processed

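The deposited files held raw counts of UMIs per gene and barcode for each of the 8 libraries, which the authors made with the PIPseeker pipeline (STAR aligner, GRCm39) from PIPseq T20 libraries; the submitters' processing notes name Seurat 4. Every barcode from 1 UMI upward was in the files. Groups came from the labels, and each library was 1 mouse, with no file column left without a sample. The 9 genes, the gene lists and the tests were chosen with earlier results of these data known, and the thresholds of the gates were set after the marker distributions had been seen.

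Cells with 800 to 44999 UMIs, 250 to 6499 genes and under 5% mitochondrial UMIs were gated by at least 4 markers of 1 class (3 for microglia) and a minimum summed marker level. That minimum was 1000 CPM for B-cells and T-cells, 1500 CPM for microglia and 5000 CPM for neutrophils and endothelial cells. For the other classes it was 2000 CPM. Cells with 3 or more markers of an excluded type, at 2000 CPM or more in sum, and cells passing 2 or more gates were left out. Together, 801 cells passed 2 or more gates, or 1 gate and an excluded type. The microglial gate also left out cells with 4 or more markers of another class, or 3 with that class's minimum level. That rule counts markers and so can depend on depth, and its part in the results was not tested. Outside the microglial gate, cells with microglial markers at 40% or more of the microglial level (922) were left out. That level was the median over cells of the same library with at least 6 microglial markers. It was 34451 to 36894 CPM after saline and 5613 to 6588 CPM after LPS. A lower share of microglial UMIs was thus allowed in the other gates after LPS, and its part in the results was not tested. No doublet caller was run. No 2 libraries shared more than 25 cell barcodes (0.187%). UMIs were summed per library and class where a library held at least 10 cells. These sums were tested with edgeR 4.0.16 in R 4.3.3 (glmQLFit, glmQLFTest, TMM scaling, filterByExpr), with Benjamini-Hochberg adjustment over all genes of the class, on in vivo treatment alone. CPM are UMIs per 1000000 UMIs of the class. DESeq2 1.42.0, other limits, gates and scalings, thinning to 800 UMIs, free-RNA subtraction, a replicate block and leaving out each library were alternatives. Exact permutation tests used scipy 1.17.1. All named genes were fixed by rule: the 9 genes in every class, up to 3 genes of the pathway list per direction and class with the largest differences, and the 3 genes most alike in pattern. Some genes that meet this rule are not reported here. Of the steps, only the edgeR test was run on simulated counts with known changes. This covered LPS against saline in endothelial cells, microglia and macrophages, and the difference between endothelial cells and microglia. Gating, thinning, free-RNA subtraction and the other steps were not simulated. Intervals and floors cover counting error only, and the 3 UMI floor was taken over a group.

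The labels give the replicate number as a batch. Libraries of the same number deviated together in microglia (6 of 6 pairs of groups with r over 0.1, 0.18 to 0.69), endothelial cells (6 of 6, 0.13 to 0.43) and neutrophils (6 of 6, 0.24 to 0.51), and less evenly elsewhere (macrophages 4 of 6, monocytes 5 of 6, dendritic cells 2 of 6, T-cells 3 of 6). The reference tables were of GRCm38.p6 and the counts of GRCm39, so no coordinate was joined to a count.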

Additional observations from a re-analysis of the deposited data

Results flagged for a closer look

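Of 126 groups of 4 libraries, 8 held a library far from the other 3 by Dixon's test, about the number that chance gives at 1 in 20. Itgal in monocytes was 472 CPM in the saline library inhibitors 1 against 232 to 256 CPM. Itga4 in neutrophils was 358 CPM in that library against 41.7 to 85.5 CPM, and Selplg in endothelial cells was 145 CPM against 76.5 to 86.8 CPM. In the LPS library inhibitors 1, dendritic cells held 196 CPM of Itgal against 0 to 19.0 CPM and 187 CPM of Itgb2 against 16.2 to 44.2 CPM, and B-cells held 194 CPM of Itga4 against 38.2 to 59.5 CPM. Icam1 in dendritic cells was 320 CPM in the LPS library DMSO 2 against 112 to 114 CPM, and Selplg in T-cells was 441 CPM in the saline library DMSO 1 against 586 to 616 CPM.

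The LPS difference differed between dissociations, as an interaction in edgeR, for Vcam1 in neutrophils (-5.46 on the log2 scale, adjusted p = 0.0106) and for Selplg in B-cells, whose saline inhibitor group held 218 UMIs and whose LPS inhibitor group held 0.

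Between classes of the same mice, the log2 LPS difference of endothelial cells exceeded that of pericytes by 3.37 for Icam1, on 6 and 16 pericyte UMIs and with no call in inhibitor libraries alone, with free RNA subtracted (3.26), with thinned cells (3.42) or without cells over 2 times the median UMIs (2.30). It exceeded that of choroid plexus cells by 2.03 for Icam1, 1.08 for Itgam and 0.78 for Vcam1, and the last 2 overlapped between groups in the TMM-scaled ratios of single mice (exact permutation p = 0.286 and 0.0571). With library totals these 2 were 0.48 (adjusted p = 0.359) and 0.20 (adjusted p = 0.604) and not called, and Itgam was 0.43 with free RNA subtracted (adjusted p = 0.731). Neither was called with thinned cells (Itgam 0.91, Vcam1 0.67), in DMSO (0.90 and 0.59) or inhibitor (1.14 and 0.90) libraries alone or without cells over 2 times the median UMIs (1.34 and 1.01). Itgam was not called with a robust spread either (1.08). Icam1 was not called in inhibitor libraries alone or with free RNA subtracted. Selp in endothelial cells against choroid plexus cells (340 UMIs in LPS endothelium, a group at 0 UMIs) and Sele against microglia (38 UMIs, a group at 0) were called too. That of Selp was lost with thinned cells, in either dissociation alone and without cells over 2 times the median UMIs. Sele was not testable with thinned cells. Both genes were high only in LPS endothelial cells, and the filter on low counts keeps such genes. Both calls thus restate that level and are no further test of it. In endothelial cells alone Sele did not pass the filter. Against microglia, endothelial cells moved by 4.23 more for Icam1, 6.85 more for Selp, and by -1.26 for Vcam1 and -2.50 for Itgal, which rests on 27 and 9 endothelial UMIs and was -1.06 with thinned cells (adjusted p = 0.642) and not called in inhibitor libraries alone. Microglia against macrophages moved by -2.87 for Itgam, 3.35 for Vcam1, -1.31 for Selplg, -0.82 for Icam1, 0.89 for Itga4, -0.67 for Itgb2 and -2.65 for Selp. Of these, Itga4 was not called with library totals, with thinned cells or in inhibitor libraries alone, Icam1 not with thinned cells or in inhibitor libraries alone (-0.26), Selplg not in inhibitor libraries alone, Itgb2 not in DMSO libraries alone (-0.26), and Selp, on 8 and 13 macrophage UMIs, in neither dissociation alone. Itgb2 also overlapped between groups in the TMM-scaled ratios of single mice, at 0.76 to 1.03 and -0.07 to 0.83 (exact permutation p = 0.0571). With class totals alone it did not overlap. Monocytes against neutrophils moved by 1.64 for Itgam, -2.50 for Selplg, 2.56 for Vcam1 and -1.55 for Icam1, of which the last 2 overlapped between groups in the TMM-scaled ratios of single mice (exact permutation p = 0.0571 and 0.0857). Vcam1 was 0.16 in inhibitor libraries alone and 1.24 without cells over 2 times the median UMIs, neither called, and Icam1 was not called with library totals or in either dissociation alone. T-cells against NKs moved by 1.54 for Itgam and -1.07 for Itgal, neither called with thinned cells, with free RNA subtracted or in DMSO libraries alone (0.84 and -1.11), and Itgal not in inhibitor libraries alone.

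Cells outside every gate (4108 after saline and 12524 after LPS) also held these genes. Their Itgam was 1133 CPM after LPS (959 to 1316 over libraries) against 394 CPM after saline, their Icam1 154 CPM (97.9 to 176) against 51.6 CPM, and their Selp 2.81 CPM (1.86 to 3.81) against 1.59 CPM.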

How the results depend on the processing

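Of the 39 calls of LPS against saline, 21 held in every alternative with a test and 2 reversed: with library totals alone, microglial Itgam was -0.25 and microglial Itgb2 -0.36. The counts of 20 risers and 19 fallers became 12 and 12 with cells thinned to 800 UMIs, and 19 to 21 and 18 to 20 with 1 library left out. No call of DMSO against inhibitors appeared with any library left out (0 to 0). The 2 pairs whose LPS difference differed between dissociations became 4 with the replicate block, 1 with DESeq2, library totals, no filter on low counts, a minimum of 1500 UMIs, mitochondrial UMIs under 10%, a stricter gate or free RNA subtracted, 0 with thinned cells or without cells over 2 times the median UMIs, and 0 to 2 with 1 library left out. Neither of the 2 could be tested with thinned cells, nor neutrophil Vcam1 without cells over 2 times the median UMIs. Differences between classes, 13 higher and 10 lower, became 7 and 4 in inhibitor libraries alone, 6 higher with thinned cells and 6 lower without the filter on low counts, and 10 to 15 and 7 to 10 with 1 library left out. Over the pathway list, 69 risers and 109 fallers became 42 and 59 with thinned cells, 56 fallers in DMSO libraries alone, and 62 to 71 and 98 to 114 with 1 library left out. Mean arterial Icam1 after LPS was 2033 CPM in place of 3115 CPM with thinned cells. The replicate block changed no call beyond those given with it. The number of pairs tested changed with the setting as well. That number and the share over all genes are given above for the main analysis but not for each alternative. A change in these counts is therefore not read as a change in the genes. Thinning leaves fewer UMIs to test, and the cause of other changes was not tested. Library totals, the gate of microglia from 1 marker and a robust spread were chosen after seeing the data.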
